A study of Mus musculus with 2 samples.

Results

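Crypt stem-like cells of the mouse colon are described here: 50 cells that carried several genes of the crypt base stem cell and few genes of mitosis. They were 13 of 542 epithelial cells in the library of wild-type (WT) mice and 37 of 1616 in the library of APP/PS1-21 mice, which model Alzheimer's disease (AD), out of 2158 epithelial cells and 6241 kept cells in all. Their human transgenes, mutant APP among them, are driven by the neuronal Thy1 promoter. Colon tissue was minced, digested with trypsin and DNase and run as droplet single-cell RNA-seq (10x), with 1 library per genotype, although the design text names the colonic epithelium. The labels give neither age, sex nor the number of animals behind a library. With 1 library in each group no test between genotypes was possible, and every 95% interval below covers counting error only. The members were chosen by the detection and shares of 31 named genes and 2 quality limits. A member had 200 or more genes detected, and mitochondrial transcripts were no more than 25% of its UMIs (unique molecular identifiers, the counted transcripts). Epcam, Krt8, Krt18, Krt19, Cldn7 and Lgals4 made up at least 0.3% of its UMIs. At least 3 of the 7 genes Lgr5, Ascl2, Smoc2, Axin2, Rgmb, Rnf43 and Znrf3 were detected. Fewer than 4 of the 8 genes Mki67, Top2a, Birc5, Cdk1, Ube2c, Cenpa, Ccnb2 and Nusap1 were detected. The goblet cell genes Muc2, Fcgbp, Clca1 and Spink4 stayed under 0.5% of its UMIs, and fewer than 3 of Aqp4, Cyp2c68, Cyp2c69, Cyp2f2, Hao2 and Cldn8 were detected. All of these genes chose the cells, so their values are a description of the choice and support nothing.

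The colonic epithelium is renewed from stem cells at the base of the crypts, whose daughters divide further up and mature into absorptive colonocytes, goblet cells, enteroendocrine cells and tuft cells. Stem cells are held in that state by Wnt signals from the surrounding mesenchyme. Lgr5 is a receptor for R-spondins, which strengthen Wnt signalling. Rnf43 and Znrf3 are the membrane ubiquitin ligases that R-spondins and Lgr5 counteract, and Axin2 is a scaffold of the β-catenin destruction complex and itself a Wnt target. Ascl2 is the basic helix-loop-helix factor that maintains crypt stem cells, Smoc2 is a secreted matrix protein of the stem cell signature, and Rgmb is a BMP co-receptor.

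Promoter windows of 300 bases, from 250 before to 50 after the transcription start, were available for 4 of the 7 stem genes (7 windows in RefSeq, build GRCm38.p6). The windows of Ascl2 and Axin2 are shown because Ascl2 is a transcription factor and Axin2 is one of the Wnt targets among the stem genes. Capitals mark matches of the E-box CANNTG, the motif of basic helix-loop-helix factors such as Ascl2 itself. The Ascl2 window lies at chr7:142969215-142969514 on the minus strand and the Axin2 window at chr11:108920099-108920398 on the plus strand.
Ascl2: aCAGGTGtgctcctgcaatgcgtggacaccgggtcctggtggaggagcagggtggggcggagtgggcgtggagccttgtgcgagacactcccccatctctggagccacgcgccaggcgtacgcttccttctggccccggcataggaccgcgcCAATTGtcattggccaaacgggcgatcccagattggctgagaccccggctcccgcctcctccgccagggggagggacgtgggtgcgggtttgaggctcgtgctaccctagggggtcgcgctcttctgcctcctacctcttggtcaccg
Axin2: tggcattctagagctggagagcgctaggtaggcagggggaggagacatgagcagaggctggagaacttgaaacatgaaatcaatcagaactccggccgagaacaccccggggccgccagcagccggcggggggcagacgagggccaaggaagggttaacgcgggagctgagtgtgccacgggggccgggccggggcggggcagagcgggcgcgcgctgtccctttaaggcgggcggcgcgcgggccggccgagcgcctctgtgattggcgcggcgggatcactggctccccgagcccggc
The Ascl2 window held 2 E-boxes, at bases 2 and 153, in 67.0% GC, and the Axin2 window held none in 70.0% GC. An E-box occurred in 72.3% of all 32851 windows of this length. The TCF/LEF-like letters CTTTGAA or CTTTGAT and CTTTGTA or CTTTGTT, searched on both strands, occurred in none of the 7 windows and in 16.9% of all windows.

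Over the whole series, 60.4% of WT and 29.2% of AD barcodes exceeded the mitochondrial limit, and kept cells held a median of 3725 UMIs in WT and 3720 in AD. The crypt stem-like cells were deeper, and unequally so. In WT their depth ranged from 6653 to 31413 UMIs with a median of 21437, and in AD from 2373 to 24711 with a median of 10270. A rule that counts detected genes is easier to meet, and its upper limits are easier to break, in a deep cell, so depth and membership cannot be told apart. Several limits cut through well-filled ranges. At the limit on stem genes, 3 WT and 16 AD members had exactly 3 stem genes, while 20 WT and 30 AD cells with exactly 2 were left out. The limit on Aqp4-type genes alone left out 17 WT and 69 AD cells: 8 WT and 20 AD members held 2 of those genes, and 10 WT and 28 AD cells outside held 3. The goblet limit alone left out 15 WT and 59 AD cells, with at most 0.0802% and 0.229% inside and at least 1.53% and 0.674% outside. The cycle limit alone left out 10 and 6 cells. In WT 1 member held 3 cycle genes and in AD 2 cells outside held 4. The lowest epithelial share was 0.346% and 0.337% inside against 0.287% and 0.299% for the nearest cells outside. The highest mitochondrial share was 24.6% and 23.9% inside against 27.4% and 25.7%. The mitochondrial limit alone left out 16 WT and 8 AD cells, beside the 13 and 37 members kept. The epithelial limit alone left out 5 and 18. No cell barcode of a member occurred in both libraries.

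The 4 markers that name the cells were found in members of both libraries. Lgr5 had 15 UMIs in 8 of 13 WT cells and 25 UMIs in 13 of 37 AD cells. Thinned to 2000 UMIs, Lgr5 was detected in 7.69% of WT and 8.11% of AD members, against 0.423% and 0.902% of cells outside the epithelium. Ascl2 had 11 UMIs in 5 WT cells and 42 in 19 AD cells, or 44.0 and 99.1 CPM (counts of a gene scaled to the usual standard total of UMIs). With no cycle gene allowed, Ascl2 turned from higher to lower in AD (log2 -0.38). Smoc2 had 20 UMIs in 8 WT cells and 67 in 30 AD cells, and Axin2 had 10 UMIs in 5 and 32 in 23. Rgmb (20 and 46 UMIs), Rnf43 (20 and 26) and Znrf3 (28 and 55) completed the set. Most members carried only a few UMIs of each gene, and no WT member held all 7 genes while 3 AD members did. After every cell was thinned to 2000 UMIs, a member held on average 0.885 of the 7 genes in WT and 1.22 in AD. Dividing cells held 0.244 and 0.45, and colonocyte-type cells 0.226 and 0.137, at the same depth. This order follows from the choice of cells by these genes, which thinning does not undo.

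**Figure D1:**
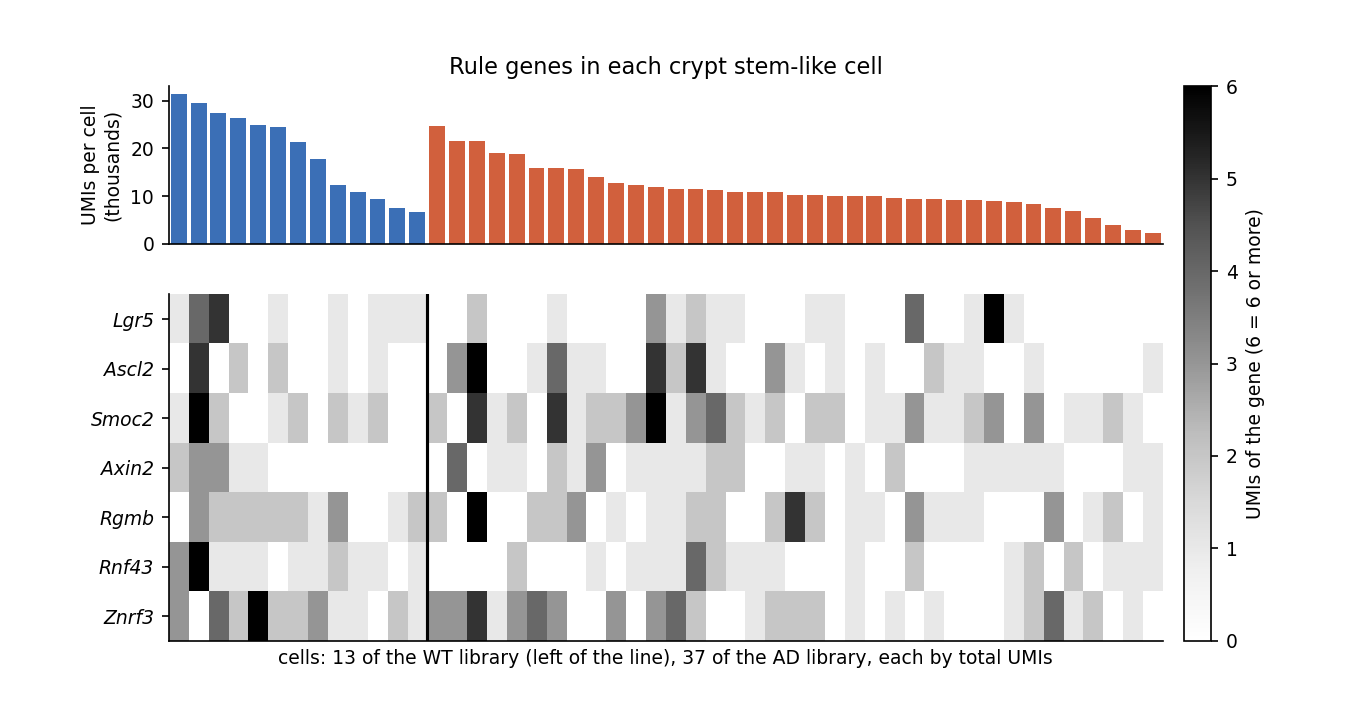
Each column is 1 crypt stem-like cell, ordered by total UMIs within its library, with the WT cells left of the line. The upper bars give total UMIs per cell, and the lower grid gives UMIs of each of the 7 rule genes on a grey scale up to 6 or more, where most cells show 3 to 5 detected genes.

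3 classes served as reference in each library. Dividing cells were epithelial cells with 4 or more of the 8 mitotic genes that met the goblet and Aqp4-type limits (41 WT, 20 AD, median depth 16899 and 12779 UMIs). Colonocyte-type cells were remaining epithelial cells with fewer than 3 stem genes and 3 or more of Aqp8, Car4, Slc26a3, Krt20, Guca2a, Ceacam20 and Mall (56 WT, 71 AD, median 5055 and 4360 UMIs). Aqp4-type cells met the goblet limit and had 3 or more of the 6 Aqp4-type genes, with no limit on mitotic genes (182 WT, 668 AD). The WT colonocyte-type cells also held enteroendocrine transcripts at 15289 CPM against 7350 in AD, and their part in the comparisons below was not tested. UMIs were summed over the cells of a class, and a gene was called different when its CPM, with 0.5 UMIs added to each sum, was at least 2-fold apart.

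A few members held transcripts of another mature cell type. In 1 WT and 3 AD cells, hormone and granule genes of enteroendocrine cells took 8.49%, 4.32%, 1.87% and 5.55% of the UMIs. Chgb, a granin of secretory granules, reached 516 UMIs in the WT cell and 136, 141 and 418 in the AD cells. None of these 4 cells held a UMI of Slc12a2, which 11 of 13 WT and 34 of 37 AD members carried. The enteroendocrine share was 0 in 10 of 13 WT and 31 of 37 AD members. Another WT cell held 46 UMIs of Chga, 4 of Chgb and 4 of Atoh1. Its enteroendocrine share of 0.270% was under the limit of 1%, so it is not among the 5 cells left out below. In 1 further AD cell, immune genes took 23.4% of the UMIs, with 3935 UMIs of Igha (immunoglobulin A heavy chain), 1122 of Jchain, 64 of Cd74 and 53 of Ly6c2. Igha was present in all 37 AD members, at a median of 17 UMIs, against a median of 1 in WT. The immune list stood at 13888 CPM in AD members, where that cell held 5064 of 5889 UMIs, and at 2029 CPM without the 5 cells (124 in WT). Immune genes were also carried by other classes. For 2 tested genes, the median log2 of members over dividing cells was -0.47 in WT and -0.14 in AD. Over colonocyte-type cells it was -4.72 and -0.68. For 4 tested over Aqp4-type cells it was 0.40 and 1.42. These medians set genes at 0 to 3 UMIs and include the 5 cells. The difference between classes was not tested. No doublet caller was run, so these 5 cells were kept, and values without them are given beside the results they move most. Stromal markers were at 3 and 20 UMIs in all members together, with Lum, Pdgfra, Cdh5 and Kdr at 0. Tuft cell markers were at 9 and 30 UMIs, 25 of the latter in 1 AD cell.

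**Figure D2:**
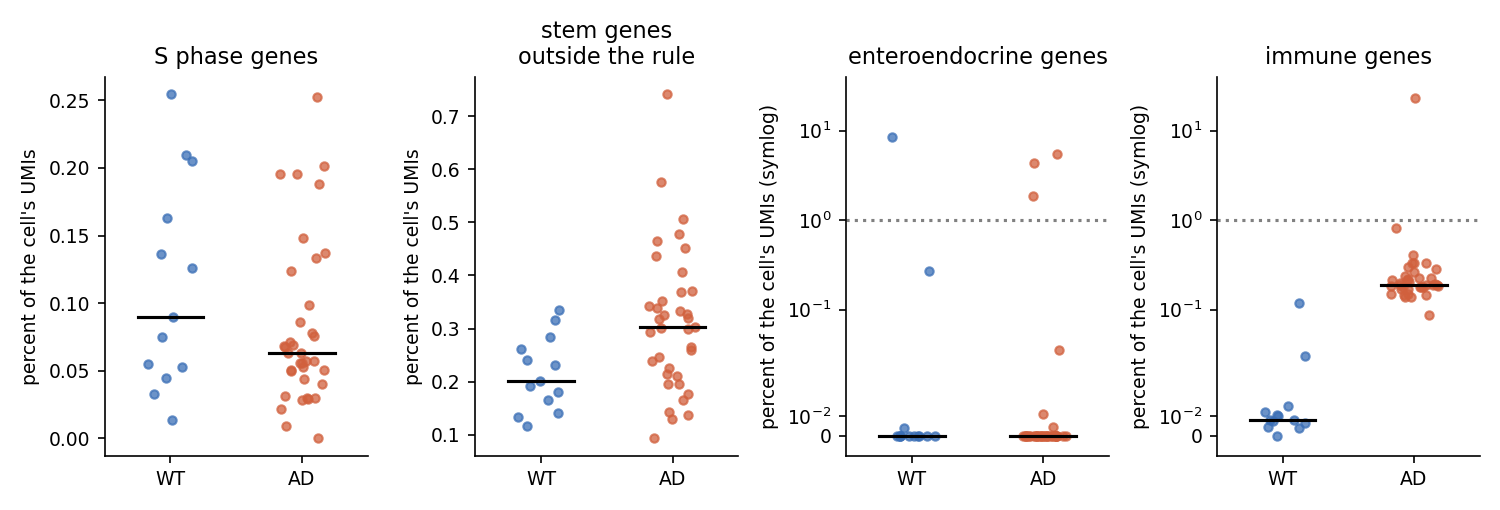
Each point is 1 crypt stem-like cell, by library (WT, AD), and each panel gives the percent of the cell's UMIs from 1 gene list. The stem signature and S phase lists overlap between libraries, and the dotted line at 1% on the symlog panels marks the limit above which 1 WT and 4 AD cells stand.

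Crypt stem-like cells made up a similar share of the epithelial cells of both libraries. The share was 2.40% in WT (13 of 542, exact Clopper-Pearson interval 1.28 to 4.07%) and 2.29% in AD (37 of 1616, 1.62 to 3.14%). The ratio of AD to WT was 0.955 (0.496 to 1.96). Dividing cells, in contrast, were 7.56% of epithelial cells in WT (41 cells) and 1.24% in AD (20 cells), a ratio of 0.164 (0.0908 to 0.286). Among members and dividing cells together, members were thus 24.1% in WT (13 of 54, 13.5 to 37.6%) and 64.9% in AD (37 of 57, 51.1 to 77.1%). The dividing class also rests on a count of detected genes, which depth affects. Neither its share nor these percentages were recomputed at equal depth. Without the limits on mitotic, goblet and Aqp4-type genes, epithelial cells with 3 or more stem genes were 17.3% in WT (94 cells) and 12.7% in AD (206 cells), a ratio of 0.735 (0.573 to 0.948). The library and the genotype cannot be told apart in these shares.

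The label "non-dividing" held only in the sense of the rule. Further genes of G2 and mitosis, which the rule did not name, were low in members: 126 UMIs in WT and 151 in AD over 20 genes, or 504 and 356 CPM, against 2714 and 2205 CPM in dividing cells. Of 13 such genes that passed the count minimum, 12 were at least 2-fold lower in both libraries, where 1.94% of 4960 genes were. These genes are those of the phase by which the cells were chosen, so the difference follows from the choice. Cyclin A2 (Ccna2) had 0 UMIs in members of either library, against 47 and 15 in dividing cells. Cyclin B1 (Ccnb1) had 0 and 2 UMIs against 56 and 17. Spc24, a kinetochore subunit, and Hmmr, a spindle protein, had 0 in members of either library, against 62 and 14 and against 60 and 20 UMIs. Cenpf, Ect2, Tpx2, Racgap1, Knstrn and Cdkn3, all of the mitotic apparatus or its control, had at most 2 UMIs in the members of a library.

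Genes of DNA replication were present in members, in WT at the level of dividing cells and in AD below it. The 24 S phase genes summed to 335 UMIs in WT members and 342 in AD, or 1340 and 807 CPM. The member level was 0.956 (0.843 to 1.08) of that in dividing cells in WT and 0.720 (0.615 to 0.842) in AD. It was 4.28 (3.49 to 5.29) and 2.88 (2.33 to 3.57) times that of colonocyte-type cells. Of 15 S phase genes that passed the minimum against dividing cells, 0 were called higher and 3 lower, where 1.96% and 1.94% of 4960 genes were. Against colonocyte-type cells, 3 of 4 were higher, where 9.19% of 4603 genes were. At 2000 UMIs per cell a member held 1.96 S phase genes in WT and 1.46 in AD, a dividing cell 2.02 and 1.70, and a colonocyte-type cell 0.643 and 0.529. Unthinned, members held 8.77 and 5.49.

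Cell cycle lists summed to less in AD than in WT members. The ratio of AD to WT was 0.602 (0.516 to 0.702) for S phase, 0.778 (0.680 to 0.890) for G1 and cyclin-dependent kinase genes and 0.873 (0.794 to 0.960) for chromatin and nucleolar genes. Of the 2 S phase genes with 50 or more UMIs, neither was 2-fold apart. Per cell, the list took 0.0133 to 0.255% of UMIs in WT with a median of 0.0897%, and 0 to 0.253% in AD with a median of 0.0629%, so the cells of the libraries overlapped. The WT cell with most S phase UMIs held 80 of the 335. Pcna, the sliding clamp of DNA polymerase, had 91 UMIs in 10 WT cells and 102 in 31 AD cells, log2 -0.60 (-1.02 to -0.17). Mcm6, a subunit of the replicative helicase, had 44 and 43 UMIs, log2 -0.79 (-1.44 to -0.16). Hells, a chromatin remodeller, had 28 UMIs in 7 WT cells and 7 in 7 AD cells, log2 -2.69 (-4.20 to -1.53). Hells had fewer than the minimum of 50 UMIs and was not counted among tested genes. Hmgb2, a chromatin protein of cycling cells, was lower in AD members by log2 -1.05 (-1.53 to -0.59), with 87 and 71 UMIs.

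**Figure D3:**
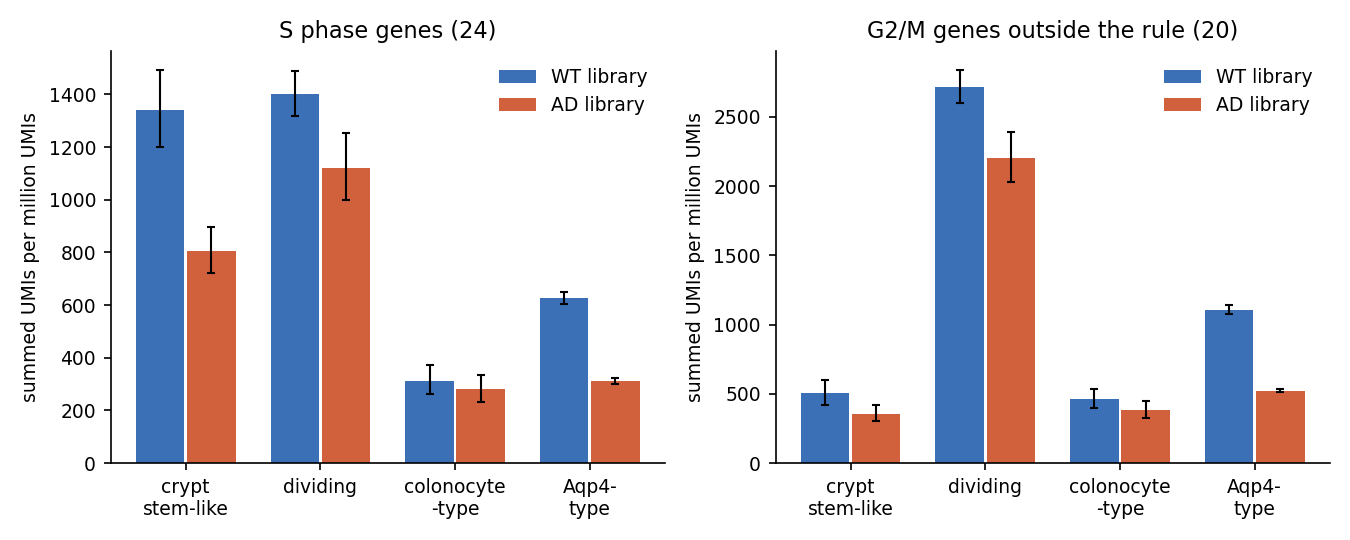
Bars give the summed CPM of the S phase list and of the further G2 and mitosis list in 4 cell classes of the WT and AD libraries, with 95% Poisson intervals. Members stand near dividing cells for S phase (1340 and 807 CPM in members) and far below them for G2 and mitosis (504 and 356 CPM).

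Other growth genes were shared with dividing cells. Ccnd2, a cyclin of the G1 phase, had 72 UMIs in all 13 WT members and 105 in 32 of 37 AD members, and was higher than in colonocyte-type cells by log2 2.48 in WT and 2.13 in AD. Cdk4, its kinase partner, was higher by 2.31 and 3.13. Among 15 chromatin and nucleolar genes, 6 of the 9 that passed the minimum were at least 2-fold higher than in colonocyte-type cells in both libraries, where 9.19% of 4603 genes were. Npm1 (nucleophosmin, 246 and 386 UMIs) was higher by 2.25 and 1.94, and Ncl (nucleolin, 148 and 280) by 1.66 and 2.24. None of 11 was called against dividing cells (1.96% higher and 1.94% lower of all genes). Ribosomal protein genes took 18.7% and 17.7% of member UMIs, 17.7% and 18.4% in dividing cells, and 8.28% and 7.40% in colonocyte-type cells. The cell cycle inhibitor Cdkn1a had 65 UMIs in 8 WT members, 44 of them in 1 cell, and 35 in AD.

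The cells also carried stem signature genes that the rule did not name, measured in the same cells that the rule chose. Of 25 such genes 20 had a UMI, and together they stood at 2240 CPM in WT members and 2882 in AD. In dividing cells they stood at 1216 and 1674 CPM, so members were at 1.84 (1.65 to 2.05) and 1.72 (1.54 to 1.92) times that level. Colonocyte-type cells stood at 664 and 589 CPM. Of 12 genes tested against colonocyte-type cells, 7 were at least 2-fold higher in both libraries, with median log2 differences of 1.79 and 2.48 against 0.09 and 0.19 over all genes. Against dividing cells, 2 of 13 were higher (1.96% of 4960 genes were) and none lower (1.94%), with medians of 0.64 and 0.67 against 0.14 and 0.09. Cdk6, a G1 kinase, was higher than in dividing cells by 2.10 in WT and 1.12 in AD, and Prom1 (prominin, CD133) by 1.13 and 1.08. The closest class was Aqp4-type cells with 3 or more rule stem genes. Against it, 7 of 14 stem signature genes were higher in both libraries and none lower, with medians of 1.19 and 1.20. Over all 7590 genes, 4.1% were higher and 3.75% lower. This class had no limit on mitotic genes. With genes at 0 set to 3 UMIs, 7 of the 8 rule cycle genes were at least 2-fold lower in members in both libraries.

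Slc12a2, the basolateral sodium-potassium-chloride cotransporter that feeds chloride secretion and marks the crypt base, was the most counted of these genes. It had 136 UMIs in 11 of 13 WT members, from 0 to 34 per cell with a median of 8. In AD it had 325 UMIs in 34 of 37 members, from 0 to 33 per cell with a median of 9. It was higher than in colonocyte-type cells by log2 3.77 in WT and 4.42 in AD. At 2000 UMIs per cell it was detected in 53.8% of WT and 73.0% of AD members (84.6% and 91.9% unthinned). At that depth it was detected in 28.0% and 52.5% of dividing cells and 7.14% and 6.86% of colonocyte-type cells. In goblet cells the share was 37.6% and 40.4%, in Aqp4-type cells 14.5% and 14.0%, and in the remaining epithelial cells 12.7% and 31.9%. In cells outside the epithelium, some of which may express this widespread cotransporter, the share was 5.64% and 6.21%. Sox9, a transcription factor of crypt progenitors, had 95 and 194 UMIs and was higher than in colonocyte-type cells by 2.87 and 3.20. At 2000 UMIs per cell Sox9 was detected in 53.8% and 56.8% of members. The share was 42.3% and 34.3% in goblet cells and 17.1% and 30% in dividing cells. Cdca7, a Myc-responsive nuclear protein, had 27 and 52 UMIs and was higher than in colonocyte-type cells by 3.33 and 3.04. Kcnq1, a potassium channel of the crypt base, was higher by 2.09 and 2.76, and Esrrg, an orphan nuclear receptor, by 3.20 and 2.22. Ephb2, the ephrin receptor that positions cells along the crypt, had 23 and 63 UMIs and passed the 2-fold limit in AD alone (0.92 in WT, 2.62 in AD). That difference was not tested. Lrig1 (21 and 21 UMIs) and Hopx (11 and 32), proposed markers of slower cycling stem cells, were sparse.

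**Figure D4:**
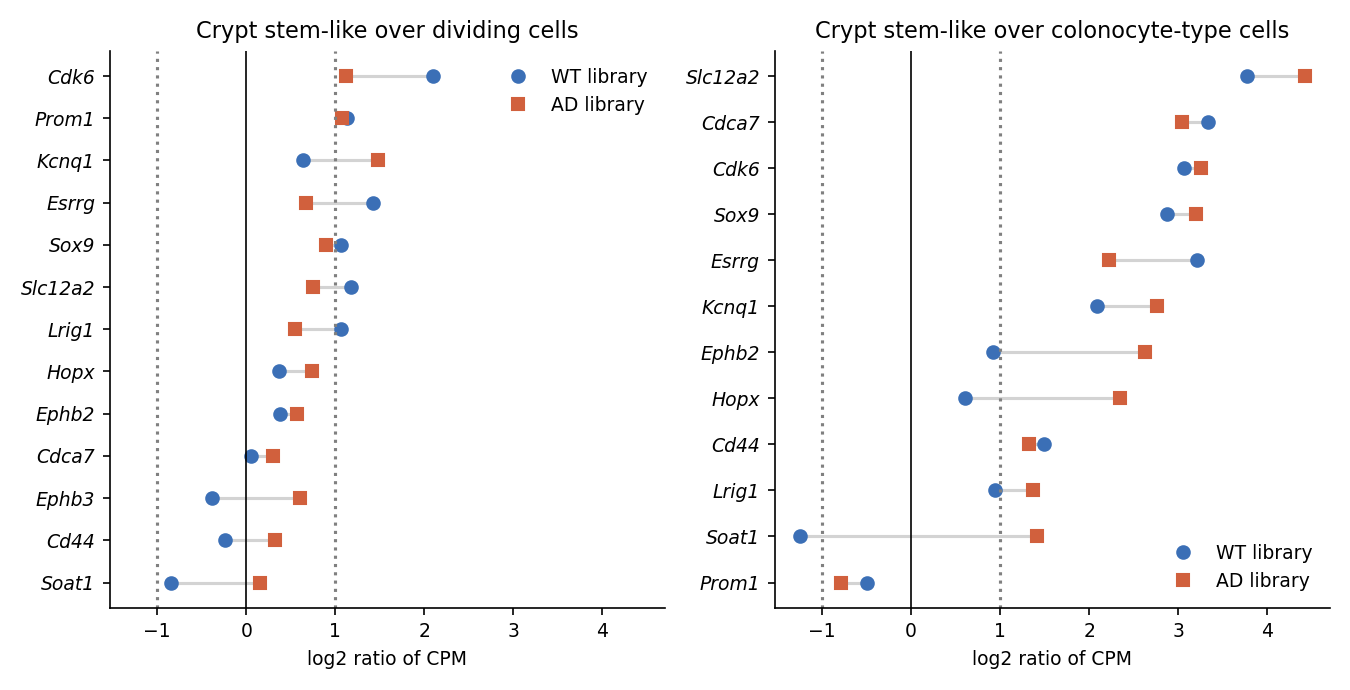
Points give the log2 ratio of CPM in crypt stem-like cells over dividing cells and over colonocyte-type cells for stem signature genes, with circles for WT and squares for AD. Against colonocyte-type cells Slc12a2, Sox9, Cdk6, Cdca7, Kcnq1 and Esrrg lie above 2 in both libraries, while against dividing cells most genes lie between 0 and 1.5.

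Against dividing cells, 97 of 4960 genes (1.96%) were higher in members of both libraries. They included 5 of the 7 rule genes, led by Ascl2 (log2 4.51 in WT and 2.97 in AD), which are part of the choice of cells. Leaving rule genes and marker genes of other cell types out, Cep68, a centrosome linker protein, stood first with 2.27 in WT and 2.77 in AD. It had only 15 and 26 UMIs in members against 9 and 2 in dividing cells. Sema6a, a transmembrane semaphorin, followed with 2.25 and 2.03 (47 UMIs in WT and 47 in AD). Kat6b, a histone acetyltransferase, was higher by 1.82 and 2.08, on 24 and 29 UMIs against 20 and 4. Chrm3, the muscarinic acetylcholine receptor of secretory epithelium, was higher by 1.57 and 1.80 on only 18 and 13 UMIs against 18 and 2. Nav2, Jmy, Nopchap1 and Ptprj were higher by between 1.43 and 1.67 in either library. In cells thinned to 2000 UMIs, Chrm3 and Nav2 stood at -0.89 and -0.24 in AD. Rimbp2, a protein of exocytosis sites, and Ptprn2, a protein of dense core granules, were also called, at 1.69 and 1.87 in AD. Without the 5 cells with enteroendocrine or immune transcripts, Rimbp2 and Ptprn2 stood at -3.27 and -2.05 in AD.

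Against colonocyte-type cells, 423 of 4603 genes (9.19%) were higher and 372 (8.08%) lower in both libraries. Myb, a transcription factor of progenitors, had 18 and 63 UMIs in members against 1 and 4, log2 4.35 in WT and 3.84 in AD. Cldn2, the pore-forming claudin of the crypt, had 26 and 74 UMIs against 4 and 2, log2 3.28 and 4.92. Foxq1, a forkhead factor, was higher by 3.27 and 3.25. Fut9, a fucosyltransferase, was higher by 3.89 and 5.92, and B3gnt7, an N-acetylglucosaminyltransferase, by 3.83 and 3.74. Cstf2, a polyadenylation factor, was higher by 4.14 and 5.41, Clic6 by 4.56 and 3.19 and Cttnbp2 by 3.39 and 3.64. Among the genes lower in members were genes of mature absorptive cells. Car1, a carbonic anhydrase, had 2 and 5 UMIs in members against 1648 and 1499 (log2 -8.64 and -8.07). Guca2a, which encodes the peptide guanylin, had 5 and 31 against 1713 and 2660 (-7.56 and -6.38) and helped to choose the colonocyte-type class. Emp1 had 4 and 8 UMIs against 475 and 938, Saa1 7 and 1 against 690 and 343, and Pmp22 1 and 2 against 123 and 424. Cyp2c55 had 0 and 2 against 264 and 435. Sptssb, Prss30, Fa2h and Ptprh had no UMI in any member, against 35 to 120 UMIs per library in colonocyte-type cells. In the list of 21 colonocyte genes, the 7 that chose the colonocyte-type class were all lower in members, as the choice fixes. Of the other 11 that passed the minimum, 9 were lower in both libraries, with median log2 differences of -3.06 in WT and -3.69 in AD when genes at 0 were set to their bound of 3 UMIs. The whole list still summed to 1816 and 2535 CPM in members, which was 1.03 (0.920 to 1.14) and 0.837 (0.764 to 0.918) times the level in dividing cells. Muc3, a membrane mucin, held 261 of its 454 WT UMIs and 767 of its 1075 AD UMIs.

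The following counts of signalling and transport genes stand beside 1.96% of all genes higher and 1.94% lower than in dividing cells, and 9.19% higher and 8.08% lower than in colonocyte-type cells. Of 23 other Wnt genes, 0 of the 9 tested were called against dividing cells, and 2 of 8 were lower than in colonocyte-type cells. The latter were Tcf7l2, the main TCF factor of the colon, by -1.21 and -2.16, and Fzd5, a Wnt receptor, by -2.48 and -1.45. In the Notch list, Hes1, the repressor through which Notch holds back the secretory fate, had 93 and 191 UMIs and was higher than in colonocyte-type cells by 1.28 and 1.66. It was the 1 gene called of 4 tested. Atoh1, the factor it represses, had 6 and 2 UMIs. Of 18 transport genes, 14 were tested against colonocyte-type cells, with 4 higher and 5 lower. Clca3b, a calcium-activated chloride channel regulator, was higher by 2.48 and 4.15, and Cftr, the apical chloride channel (56 and 127 UMIs), stood at 0.97 and 1.64. Of 18 genes of the regenerative or fetal-like programme, 5 of 9 tested were lower than in colonocyte-type cells and none higher.

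Between the libraries, AD members had 105 of 2315 tested genes at least 2-fold higher (4.54%) and 64 lower (2.76%). The median over all these genes was 0.00. Without the 5 cells with enteroendocrine or immune transcripts, 98 of 2096 (4.68%) were higher and 67 (3.2%) lower. Of the 9 tested stem signature genes none was called, with a median log2 of 0.26. Their sum was 1.29 (1.16 to 1.43) times the WT level, and per cell it took 0.201% of UMIs in WT and 0.303% in AD by the median, with overlapping ranges. Slc12a2 stood at log2 0.49 (0.20 to 0.79) and Sox9 at 0.26 (-0.09 to 0.64). Of 5 tested Wnt genes none was called, and the list's ratio was 1.03 (0.882 to 1.22). The Notch ratio was 1.13 (0.937 to 1.36), and Hes1 stood at log2 0.27 (-0.09 to 0.65).

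Summed levels of the BMP and TGFβ, EGF, ephrin and lineage factor lists were higher in AD members. The counts of single genes stand beside 4.54% of all 2315 tested genes higher and 2.76% lower. The BMP and TGFβ list stood at 1.31 (1.15 to 1.49) times the WT level, and 2 of its 8 tested genes were called higher. Bmp2, a BMP ligand of differentiating epithelium, had 7 UMIs in 3 of 13 WT cells and 57 in 24 of 37 AD cells. Its log2 ratio was 2.18 (1.13 to 3.64). In dividing cells Bmp2 stood at 56.7 CPM in WT and 29.3 in AD. In colonocyte-type cells the values were 128 and 114, and in Aqp4-type cells 93.4 and 140. Id2, a BMP target, had 26 and 117 UMIs, log2 1.39, and stood at 0.41 without the 5 cells and at -0.21 with no Aqp4-type limit. The EGF list stood at 1.39 (1.22 to 1.59) times the WT level with none of 4 tested genes called. Hbegf, a ligand of the EGF receptor, had 138 and 430 UMIs, log2 0.87 (0.60 to 1.16), and Areg, another such ligand, had 61 and 67, log2 -0.63 (-1.15 to -0.10). Spry2, a feedback inhibitor of that pathway, had 4 and 31 UMIs. The ephrin list stood at 1.86 (1.46 to 2.38) times the WT level, and 1 of 3 tested genes was called higher. This was Efnb1, a membrane-bound ephrin, which had 12 and 42 UMIs, log2 1.00 (0.09 to 2.11). Klf4, a factor of differentiating epithelium, had 76 UMIs in 11 WT cells and 263 in 35 AD cells, log2 1.02 (0.66 to 1.42). With 2 stem genes enough for membership, Klf4 stood at -0.0809. Klf5, a factor of the crypt compartment, had 183 and 456 UMIs, log2 0.55 (0.30 to 0.81). The 17 lineage factors summed to 1.36 (1.25 to 1.48) times the WT level, with 2 of 11 tested called higher.

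Summed levels were also higher for secretory genes (1.60 times, 1.35 to 1.89, with 2 of 4 tested called higher), transport genes (1.45 times, 1.34 to 1.58, with 2 of 10) and early response genes (1.28 times, 1.23 to 1.34), where 4.54% of all genes were called higher. The colonocyte list also stood higher, at 1.40 (1.25 to 1.56) times the WT level, with none of 3 tested genes called. Muc3 alone held most UMIs of this list in members of both libraries. The list without Muc3 was not compared, so the ratio does not describe its other genes. With 2 stem genes enough for membership, the colonocyte list stood at log2 -0.56. Creb3l1, a factor of secretory cells, had 35 UMIs in 10 WT cells and 135 in 34 AD cells, log2 1.17 (0.64 to 1.77). Agr2, a disulfide isomerase for mucins, had 87 and 217, log2 0.55 (0.19 to 0.93). Tff3, a goblet cell peptide, had 8 and 72 UMIs, log2 2.33, but in AD it was in 7 cells of which 2 held 67 UMIs. In members with Lgr5, Tff3 stood at -2.35. Clca3b had 194 UMIs in 11 WT cells and 672 in all 37 AD cells, log2 1.03 (0.80 to 1.27), and Slc4a4, a bicarbonate cotransporter, had 22 and 77, log2 1.02 (0.35 to 1.80). Among early response genes, which enzymatic dissociation is known to induce, 2 of 17 tested were called higher and 1 lower (4.54% and 2.76% of all genes), with a median of 0.33. At a mitochondrial limit of 10% their summed difference was log2 -0.0301. Fos had 506 UMIs in all 13 WT and 1786 in all 37 AD cells, log2 1.06 (0.91 to 1.20), and stood at 0.97 without the 5 cells and at 0.24 with 2 stem genes enough. Klf6 stood at 1.04 (0.74 to 1.36) and Jun at 0.14 (-0.06 to 0.34). The heat shock gene Hspa1b fell in AD by 1.97 on the log2 scale, from 267 UMIs in 12 cells to 115 in 22.

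App, the precursor of β-amyloid, had 34 UMIs in 11 of 13 WT cells and 147 in 33 of 37 AD cells, or 136 and 347 CPM, log2 1.33 (0.80 to 1.93). Without the 5 cells App stood at 1.22, and with no Aqp4-type limit at 0.66. Its level in WT and AD was 162 and 183 CPM in dividing cells, 238 and 211 in colonocyte-type cells and 171 and 214 in Aqp4-type cells. The difference between classes was not tested. The gene list of the files holds no row for the human transgenes, so their transcripts and mouse App cannot be told apart. Psenen, a subunit of the γ-secretase that releases β-amyloid, had 35 and 27 UMIs, log2 -1.13 (-1.92 to -0.37).

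The genes furthest apart between the libraries were in part those of single cells. Cd74 (0 UMIs in WT, 70 in AD, at least 13.8-fold higher against a floor of 3 UMIs) and Ly6c2 (0 and 58, at least 11.4-fold) had 64 and 53 UMIs in the cell with immunoglobulin transcripts, so that 6 and 5 UMIs remained without the 5 cells. Both genes were also higher in AD in dividing cells (Cd74 4.05 and 249 CPM, Ly6c2 0 and 76.9). The same held in Aqp4-type cells (10.4 and 59.7, 0.867 and 30.4). Colonocyte-type cells held Ly6c2 at 2.42 and 160 CPM, but Cd74 at 177 and 169. Piezo2, a mechanosensitive channel, had all 67 AD UMIs in the 3 AD cells with enteroendocrine transcripts. Other genes were spread over many AD cells. Ccl20, the chemokine that attracts CCR6-bearing lymphocytes, had 3 UMIs in 2 WT cells and 86 in 16 AD cells, with 40 in 1 cell. Its log2 ratio was 3.87 (2.48 to 6.38). In dividing cells Ccl20 stood at 54.0 CPM in WT and 40.3 in AD. In colonocyte-type cells the values were 29.1 and 74.2, and in Aqp4-type cells 42.1 and 74.4. Slc25a25, a mitochondrial ATP-magnesium carrier, had 4 UMIs in 3 WT cells and 50 in 25 AD cells, log2 2.73 (1.44 to 4.81). Pck1, the enzyme that commits carbon to gluconeogenesis, had 5 UMIs in 4 WT cells and 54 in 26 AD cells, log2 2.55 (1.36 to 4.35). Pck1 was also higher in AD in the other classes: 14.8 and 62.3 CPM in dividing cells, 26.7 and 111 in colonocyte-type cells and 85.6 and 202 in Aqp4-type cells. Tent5c, Ier5, Ipmk and Gng7 were higher by 2.21 to 2.28 and had UMIs in 16 to 26 AD cells. Slc25a25, Tent5c, Ier5 and Ipmk were also higher in AD in dividing, colonocyte-type and Aqp4-type cells. In dividing cells Slc25a25 stood at 87.7 and 95.2 CPM in WT and AD, and Tent5c at 40.5 and 58.6. Ier5 stood at 60.7 and 117 CPM there, and Ipmk at 64.8 and 136. Gng7 was higher in AD in dividing cells (78.3 and 95.2 CPM) and Aqp4-type cells (48.1 and 83.3). It stood at 63.0 and 30.1 in colonocyte-type cells.

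Among genes lower in AD members, Rragd, a GTPase that signals nutrients to mTORC1, had 198 UMIs in 10 WT cells and 77 in 20 AD cells, log2 -2.12 (-2.52 to -1.74). Rragd was also lower in AD in dividing cells (460 and 227 CPM), colonocyte-type cells (82.4 and 37.1) and Aqp4-type cells (227 and 76.3). Hspa1b likewise stood at 808 and 216 CPM in dividing cells, 737 and 496 in colonocyte-type cells and 891 and 499 in Aqp4-type cells. Swt1 had 50 UMIs in 11 WT cells and 20 in 15 AD cells, log2 -2.06, and stood at 0.49 at a mitochondrial limit of 10%. Gsdmc2, a gasdermin of the colon, had 161 UMIs in 10 WT cells and 73 in 20 AD cells, log2 -1.90 (-2.32 to -1.50). It was also lower in AD in dividing cells (692 and 161 CPM) and Aqp4-type cells (1868 and 1402). In colonocyte-type cells it stood at 1154 and 1286. Ndufb4, a subunit of respiratory complex I, had 43 and 23 UMIs, log2 -1.65, and Cks2, a partner of cyclin-dependent kinases, had 32 and 18, log2 -1.57. Both were also lower in AD in the reference classes. Cks2 stood at 157 and 80.6 CPM in dividing, 55.8 and 20.9 in colonocyte-type and 148 and 74.7 in Aqp4-type cells. For Ndufb4 the values were 123 and 91.6, 138 and 121, and 179 and 130. For 5 others 1 WT cell held most UMIs. Leaving out the top cell of each library moved Itpr1 from -1.74 to -0.58, Cdkn1a from -1.65 to -0.46, St3gal4 from -1.60 to -0.60, Cacna1a from -1.70 to 0.35 and Hepacam2 from -1.59 to 0.48. Kcnb2 (-2.11) had 58 of 67 WT UMIs in 1 cell. Without the 5 cells, Kcnb2 had 58 and 0 UMIs and Cacna1a had 50 and 10 (log2 -2.90). These values still include the WT cell with 46 Chga UMIs, which was under the 1% limit. Without the top cell of each library, Kcnb2 stood at -0.62. In the remaining gene groups single genes stood out. Herpud1 of the ER stress list had 12 and 52 UMIs, log2 1.31 (0.43 to 2.39), and Manf had 59 and 36, log2 -1.47 (-2.11 to -0.85) or 0.42 in cells thinned to 2000 UMIs. Hk2, the first enzyme of glycolysis, had 33 and 117, log2 1.05 (0.50 to 1.67) or -0.20 with no Aqp4-type limit, and Tjp1, a tight junction scaffold, had 14 and 54, log2 1.15 (0.32 to 2.15).

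**Figure D5:**
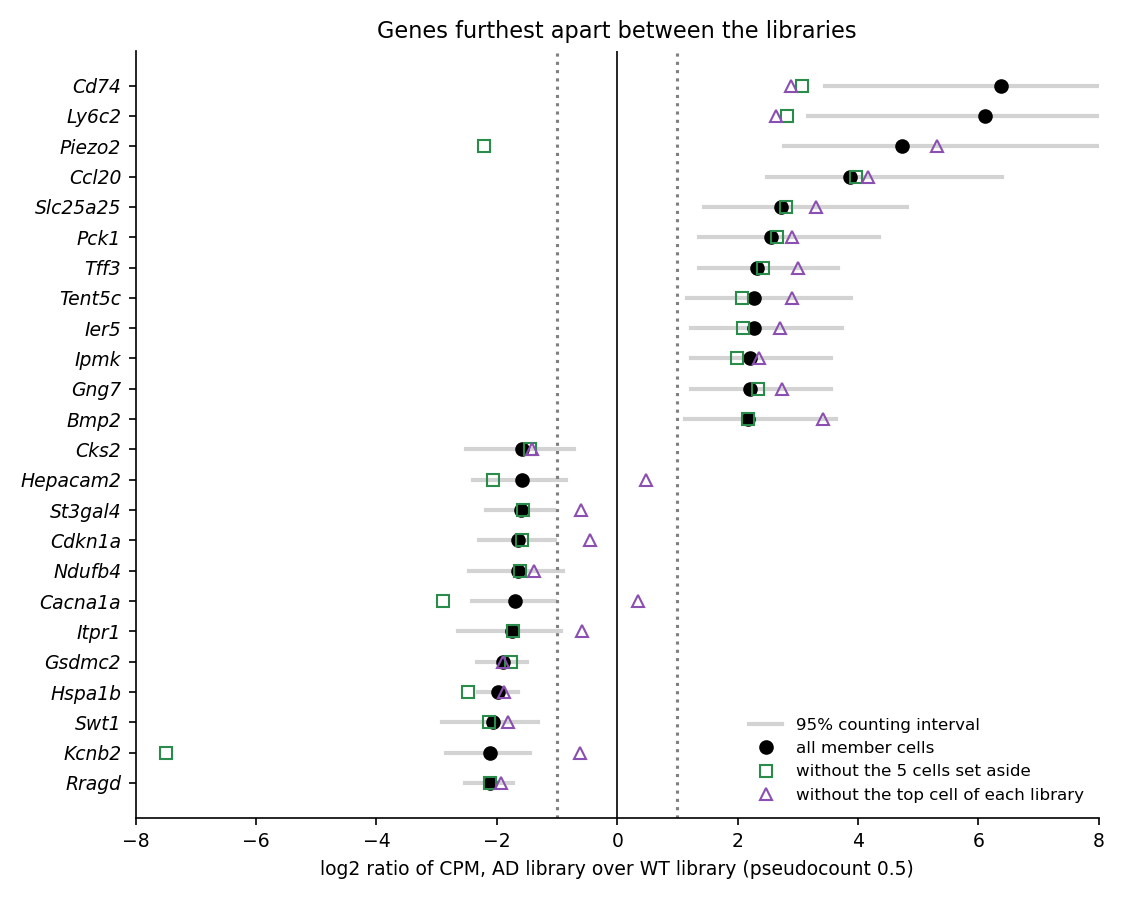
Filled circles give the log2 ratio of CPM, AD over WT, of the 24 genes furthest apart in crypt stem-like cells, with 95% counting intervals in grey. Open squares leave out the 5 cells with enteroendocrine or immune transcripts and open triangles the top cell of each library, which move Piezo2 to -2.22 and Cacna1a to 0.35.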

How the data were processed

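For 1 WT and 1 AD colon library the authors deposited unnormalized whole-number UMI counts of each gene in each barcode. Cell Ranger 3.0.1, STAR, Seurat 3.0.2 and the mm10 build are named in the submitters' processing notes, and no barcode held fewer than 500 UMIs. Members and classes were found by the rule in the report, with pandas 2.3.3, numpy 2.4.6 and scipy 1.17.1 under Python 3.11.15. UMIs were summed per class and library, and ratios of CPM with 0.5 UMIs added were taken for genes with at least 50 UMIs over the sums compared. TMM scaling (edgeR 4.0.16, R 4.3.3) was an alternative. Whole libraries held 26898149 (WT) and 38731915 (AD) UMIs, members 250030 and 424031. Intervals are exact (Clopper-Pearson, Poisson, or binomial on the total) at 95% and cover counting error only. Thinning used 20 draws. The sums and ratios were tested on simulated Poisson sums without spread between cells, so calls that rest on single cells were not covered. Genes named in full are the 12 furthest apart each way between libraries and the 10 each way between classes, at least 2-fold in both, beside fixed lists of 503 genes; a few genes these rules name are not reported here. The members, lists and rule were chosen with earlier results of these data known. Promoter sequences are RefSeq's. Doublets were not called, and other arms of the series were not analysed here.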

Additional observations from a re-analysis of the deposited data

Results flagged for a closer look

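For 9 genes of the lists, members differed from another class at least 2-fold in WT and at least 2-fold the other way in AD. The lists hold 503 genes, and the share of all genes that turn this way was not computed. Whether 9 exceeds that share therefore cannot be said. The difference between the libraries was not tested for any of the 9. Against colonocyte-type cells, 6 genes were lower in WT members and higher in AD members. Soat1, an enzyme of cholesterol esterification, stood at log2 -1.25 in WT and 1.41 in AD. Tff3 stood at -1.46 and 2.25, and Hoxa10 at -1.26 and 1.43. In WT members these genes had only 6, 8 and 8 UMIs. The enteroendocrine genes Chga (-2.65 and 1.18), Chgb (-2.15 and 1.92) and Tph1 (-4.22 and 1.26) had most of their member UMIs in the cells with enteroendocrine transcripts: 695 of 697 AD and 516 of 520 WT UMIs of Chgb, 243 of 245 and 92 of 139 of Chga, and all 29 and 12 of Tph1. The colonocyte-type cells held enteroendocrine genes at 15289 CPM in WT and 7350 in AD. Against dividing cells, Cdkn1a stood at 1.40 in WT and -1.09 in AD, Slc26a3, the chloride-bicarbonate exchanger of mature colonocytes, at 1.14 and -1.69, and Slc4a4 at -1.08 and 1.15. Of the 65 WT UMIs of Cdkn1a, 44 were in 1 cell, and Slc26a3 had 17 WT UMIs in 3 cells and 6 AD UMIs in 6.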

How the results depend on the processing

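No paired analysis was possible because each genotype had 1 library. The ratio of AD to WT in the share of members stayed within its counting interval under every alternative run, from 0.681 (at least 2 stem genes) to 1.27 (thinned to 1000 UMIs). At an epithelial limit of 1% no member was left in either library, so that alternative gave no value. Leaving out the 5 cells with enteroendocrine or immune transcripts, and lifting the Aqp4-type limit, were chosen after seeing the data. The other 44 recomputed counts and shares stayed within 1.5 times the count or within the share's interval. The cause was not tested for any value that moved, beyond fewer genes tested at stricter minimums.

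Genes higher in AD members (105) became 37, 165 and 186 with a mitochondrial limit of 10%, 50% or none, 54 at a pseudocount of 5, 381 and 11 at a minimum of 20 or 200 UMIs, 7 after thinning to 2000 UMIs, 65 without members with 2 or more other-type markers, 53 in members with Lgr5 and 163 with no Aqp4-type limit. Genes lower in AD (64) became 18 with no cycle gene allowed, 26 with fewer than 2, 284 and 5 at 20 or 200 UMIs, 3 after thinning and 23 without each gene's top cell. Against dividing cells, 97 higher and 96 lower became 4 and 14 at 200 UMIs, 40 and 61 at a pseudocount of 5, 14 and 15 after thinning, and 164 and 158 at a 50% mitochondrial limit. Against colonocyte-type cells, 423 higher became 132 at 200 UMIs, 94 after thinning and 1430 at 50%, and 372 lower became 153 and 119 at the first 2.

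Directions turned as follows, in log2. At a 10% limit: Swt1 0.49, Cacna1a 0.12 and the early response sum -0.0301. At 2 stem genes: Kcnb2 0.0943, Aqp4 -0.35, Klf4 -0.0809 and the colonocyte sum -0.56. With no cycle gene: Kcnb2 0.39, Cacna1a 0.32, Cdkn1a 2.15, Hepacam2 0.43 and Ascl2 -0.38. With fewer than 2: Kcnb2 0.0834, Cacna1a 0.24, St3gal4 0.0586, Hepacam2 0.31 and the colonocyte sum -0.10. After thinning: Manf 0.42, and in AD against dividing cells Chrm3 -0.89 and Nav2 -0.24. Without the top cell: Cacna1a 0.35 and Hepacam2 0.48. In members with Lgr5: Tff3 -2.35. Without the 5 cells: Piezo2 -2.22, and in AD against dividing cells Rimbp2 -3.27 and Ptprn2 -2.05. With no Aqp4-type limit: Id2 -0.21 and Hk2 -0.20. The S phase sum stayed lower in AD under every alternative run, from -1.20 to -0.40.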

Other observations

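Hox genes, which set position along the gut, were carried by the members at 120 UMIs in WT and 211 in AD over 16 genes. Hoxb13, a gene of the distal colon, had 38 and 113 UMIs. Hoxd13, the most posterior of its cluster, had 15 UMIs in 3 of 13 WT members and 0 in AD, at least 8.48-fold lower in AD against a floor of 3 UMIs. It had no UMI in dividing or colonocyte-type cells of either library. Reg3g, an antimicrobial lectin, had 20 UMIs in WT, all in 1 cell, and 0 in AD. In colonocyte-type cells it stood at 281 CPM in WT and 0 in AD.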
